A study of Mus musculus with 2 samples.

Results

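The 10 genes of fatty acid uptake by capillaries described here in tumor endothelial cells (ECs) are Gpihbp1, Lpl, Lipg, Cd36, Fabp4, Fabp5, Mgll, Pparg, Meox2 and Tcf15. These 10 of the 32285 genes measured were chosen by name, for what the genes are known to do and with earlier results of these data known. Each was measured by its UMIs (single RNA molecules, counted by a barcode), summed over the cells of a class and scaled to the UMIs of all genes in those cells, in the usual unit of CPM.

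Capillary ECs take fatty acids out of the blood in steps. Lipases at the vessel wall release them from lipoprotein particles, surface receptors take them in, binding proteins carry them through the cell, and a few transcription factors set the level of these genes. In the lung, capillaries are built from large Ednrb+ Car4+ cells that line the gas exchange surface (aerocytes) and from Kit+ general capillary cells, for which Gpihbp1 is a known marker.

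The series holds 1 control library and 1 Dnmt1iECKO library of 10x Genomics 3′ single-cell RNA-seq, each from live CD31+ CD45- cells sorted from YUMMER1.7 tumors of 3 pooled female mice aged 8 to 10 weeks. YUMMER1.7 is a mouse melanoma line. The labels place the tumors under the skin of the shoulder, whereas the study's methods describe lung tumors after injection into the tail vein. Both libraries held lung cell types, among them 110 control and 220 Dnmt1iECKO alveolar macrophages and 88 and 42 type 2 epithelial cells. The Dnmt1iECKO mice carried Cdh5CreERT2;Dnmt1fl/fl;ZsGreenlsl/lsl, in which tamoxifen activates Cre in Cdh5-expressing ECs of every organ, not of the tumor alone. The control mice are labelled C57BL/6, and the study's methods give them the same Cre and ZsGreen reporter. With 1 library per condition there was no replicate check, no test was possible, and a library and its condition cannot be told apart. All intervals are exact 95% intervals that cover counting error only.

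The control library had 9301 cells and 123830489 UMIs, and the Dnmt1iECKO library had 9522 cells and 141433493 UMIs, with 29 cell barcodes in common. ECs had to show a UMI of Cdh5 or of Pecam1 and none of Ptprc, and numbered 5529 in the control library and 2410 in the Dnmt1iECKO library, at medians of 10147 and 10801 UMIs per cell. Each EC class took the ECs with both genes of 1 marker pair and of no other pair. The Ednrb+Car4+ class held 1184 control and 366 Dnmt1iECKO cells, the Kit+Bmp6+ class 2203 and 881, the Slc6a2+Selp+ class 60 and 68, and the Gja5+Bmx+ class 34 and 30. The remaining ECs had no pair (1173 and 696) or more than 1 pair (875 and 369), and enter all ECs only. Beside the gating pair, 7 markers of each class (aerocyte, general capillary, vein and artery markers, respectively) were checked, and all 7 were higher in that class than over all ECs in both libraries. The sort did not leave ECs alone: 330 control and 1515 Dnmt1iECKO cells were T cells by their markers. The libraries also held macrophages, alveolar fibroblasts and epithelium. Classes of other non-immune cells needed no Cdh5 UMI but allowed Pecam1. Hence 95 control and 85 Dnmt1iECKO ECs met such a class too and were counted in both. A list of 12 type 2 epithelial markers, surfactant genes among them, summed to 3736 CPM in the control ECs and 3961 CPM in the Dnmt1iECKO ECs, with every marker detected.

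Dnmt1, the deleted gene, was at 51.5 CPM in the control ECs and at 37.2 CPM in the Dnmt1iECKO ECs, a log2 ratio of -0.47 (-0.56 to -0.38). The log2 ratio was -0.61 (-0.90 to -0.32) in Ednrb+Car4+ ECs, -1.01 (-1.20 to -0.83) in Kit+Bmp6+ ECs and 0.13 (-0.53 to 0.81) in Slc6a2+Selp+ ECs. Tags at the 3′ end of a transcript need not lie in the deleted part of the gene, so these values are no check of the deletion.

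Dnmt1 copies methylation at CpG sites when DNA is replicated, so the CpG content of the members' promoters is shown, with each CG in capitals. Windows of 300 bases, from 250 before to 50 after a transcript start (RefSeq, GRCm38.p6), were found for 4 of the 10 members. Methylation was not measured in these libraries. The windows of Cd36 (chr5:17835847-17836146, minus strand, within the annotated gene), of Meox2 (chr12:37108290-37108589, plus strand) and of the first and the last Pparg start (chr6:115360894-115361193 and chr6:115421816-115422115, plus strand) read as follows, 5′ to 3′.
Cd36: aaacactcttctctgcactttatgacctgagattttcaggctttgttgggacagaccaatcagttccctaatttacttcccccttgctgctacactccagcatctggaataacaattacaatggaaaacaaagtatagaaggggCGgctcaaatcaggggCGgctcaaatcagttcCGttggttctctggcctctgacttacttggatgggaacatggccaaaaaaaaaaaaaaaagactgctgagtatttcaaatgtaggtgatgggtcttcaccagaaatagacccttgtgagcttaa
Meox2: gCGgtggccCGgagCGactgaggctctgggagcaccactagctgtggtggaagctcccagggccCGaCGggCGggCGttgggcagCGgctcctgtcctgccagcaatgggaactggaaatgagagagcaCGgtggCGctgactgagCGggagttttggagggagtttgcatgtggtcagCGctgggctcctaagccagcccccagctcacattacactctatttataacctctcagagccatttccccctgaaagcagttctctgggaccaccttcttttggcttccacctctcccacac
Pparg first start: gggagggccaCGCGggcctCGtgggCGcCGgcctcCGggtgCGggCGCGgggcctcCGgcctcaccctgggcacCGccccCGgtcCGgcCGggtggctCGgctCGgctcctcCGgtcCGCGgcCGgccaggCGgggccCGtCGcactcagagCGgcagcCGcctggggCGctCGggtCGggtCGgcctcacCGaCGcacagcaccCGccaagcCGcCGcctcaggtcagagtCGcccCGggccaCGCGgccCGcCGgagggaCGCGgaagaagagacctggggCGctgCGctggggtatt
Pparg last start: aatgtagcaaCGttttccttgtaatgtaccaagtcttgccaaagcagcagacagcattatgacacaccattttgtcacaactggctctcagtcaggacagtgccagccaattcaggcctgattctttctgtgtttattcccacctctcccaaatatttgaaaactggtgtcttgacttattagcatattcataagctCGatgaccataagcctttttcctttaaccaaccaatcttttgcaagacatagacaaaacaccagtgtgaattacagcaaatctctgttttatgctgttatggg

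The Cd36 window held 3 CpG sites, and 76.7% of all 32851 windows had as many or more, against a median of 7. The Meox2 window held 12, with 39.6% of windows at as many or more. The Pparg windows spanned nearly the whole range, with 44 sites at the first start (2.25% of windows had as many or more), 13 at the middle start and 2 at the last (85.9%). Both starts of Mgll lay in CpG-rich windows of 32 and 42 sites. The genes themselves lie at chr15:75596628-75599481 (Gpihbp1), chr8:68880491-68907448 (Lpl), chr5:17781690-17888801 (Cd36), chr3:10204088-10208576 (Fabp4), chr3:10012548-10016607 (Fabp5), chr6:88724412-88828360 (Mgll), chr6:115360951-115490399 (Pparg), chr12:37108540-37179534 (Meox2) and chr2:152143561-152149097 (Tcf15) on GRCm38. Meox2 overlaps Gm48617 on the same strand, and its counts are uncertain to that extent. Mgll and Pparg overlap Gm26588 and Gm44079 on the opposite strand, which touches their counts only if reads were counted without regard to strand.

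The first question was in which cells of these libraries each gene is expressed. Of the capillary classes, Kit+Bmp6+ ECs had the more Gpihbp1 and Lpl and Ednrb+Car4+ ECs the more Mgll, while Cd36 was high in both. Of the 9 members with at least 20 UMIs over the 2 classes in each library, 2 were at least 2-fold higher in Kit+Bmp6+ than in Ednrb+Car4+ ECs in both libraries (Gpihbp1 and Lpl), beside 8.69% of 12716 genes. Another 2 were at least 2-fold lower (Mgll and Fabp4), beside 4.46% of genes. These counts came to 4 higher and 1 lower when the rare ECs rich in Fabp4, described further on, were left out. Fabp4, on which those ECs were chosen, was then no longer among the lower members, which follows from the choice. The added higher members were Fabp5 and Tcf15, the latter on 9 and 1 UMIs in Ednrb+Car4+ ECs. No share over all genes was taken for the counts without those ECs.

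Gpihbp1, which binds lipoprotein lipase and carries it to the inner face of the capillary, stood at 651 CPM (641 to 660) in Kit+Bmp6+ ECs of the control library and at 620 CPM (605 to 634) in those of the Dnmt1iECKO library. In Ednrb+Car4+ ECs it was at 120 CPM and 116 CPM, 5.40-fold lower than in Kit+Bmp6+ ECs of the control library and 5.34-fold lower in the Dnmt1iECKO library. Gja5+Bmx+ ECs (265 and 264 CPM) followed in both libraries, and then Slc6a2+Selp+ ECs (154 and 134 CPM). The order of EC classes was thus the same in both libraries, with only the Slc6a2+Selp+ and Ednrb+Car4+ values of the Dnmt1iECKO library overlapping in their intervals. In the classes of other cells, fibroblasts, epithelium, macrophages and mural cells were at 20.5 CPM or less. T cells, which stand for free RNA here, were at 1.48 and 0.97 CPM. A Gpihbp1 UMI was found in 2038 of 2203 control and 812 of 881 Dnmt1iECKO Kit+Bmp6+ ECs. After each cell was thinned to 2000 UMIs, which left out 365 control and 177 Dnmt1iECKO ECs, 66.9% of control and 64.5% of Dnmt1iECKO Kit+Bmp6+ ECs had a Gpihbp1 UMI, 14.7% and 16.7% of Ednrb+Car4+ ECs, and 0.61% and 0.20% of T cells, whose median depths before thinning were 8845.5 and 8911 UMIs.

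Lpl, lipoprotein lipase itself, splits the triglycerides of circulating lipoproteins. It stood at 147 and 149 CPM in Kit+Bmp6+ ECs of the control and the Dnmt1iECKO library, and at 22.9 and 31.0 CPM in Ednrb+Car4+ ECs, 6.44-fold and 4.82-fold lower. Lpl is not particular to vessels: alveolar macrophages reached 1626 and 2169 CPM, and alveolar fibroblasts 238 and 137 CPM. T cells were at 1.48 and 1.93 CPM. Lipg, the endothelial lipase that acts on the phospholipids of HDL, was low in ECs in spite of its name. It was at 12.8 and 9.92 CPM in Kit+Bmp6+ ECs and at 8.62 and 7.74 CPM in Ednrb+Car4+ ECs, with no UMI in Slc6a2+Selp+ ECs of either library, where 3 UMIs would be 3.13 and 2.42 CPM. The highest Lipg level was in mural cells, the pericytes and smooth muscle of the vessel wall, at 210 CPM (61 cells) and 144 CPM (64 cells).

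Cd36, the scavenger receptor that takes up long-chain fatty acids, was detected in nearly every capillary EC. In Ednrb+Car4+ ECs it reached 2256 CPM (2230 to 2283) in the control library and 2375 CPM (2326 to 2424) in the Dnmt1iECKO library. Kit+Bmp6+ ECs came next, at 2014 CPM (1997 to 2031) and 1827 CPM (1802 to 1852). Slc6a2+Selp+ ECs (1049 and 820 CPM) and Gja5+Bmx+ ECs (982 and 939 CPM) were lower. The intervals of these 2 classes overlapped in each library, but no ratio between them was taken. A Cd36 UMI was found in 1167 of 1184 control and 360 of 366 Dnmt1iECKO Ednrb+Car4+ ECs. At 2000 UMIs per cell, 95.8% and 96.2% of Ednrb+Car4+ ECs and 94.1% and 93.9% of Kit+Bmp6+ ECs had a Cd36 UMI, against 1.82% and 0.86% of T cells. Type 2 epithelium, at 861 and 722 CPM, was the only non-endothelial class of those described that came near the EC levels.

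Mgll cuts the last fatty acid from monoacylglycerol. It was at 581 CPM (568 to 594) and 623 CPM (598 to 648) in Ednrb+Car4+ ECs, and at 82.8 and 92.3 CPM in Kit+Bmp6+ ECs, 7.01-fold and 6.75-fold lower. Gja5+Bmx+ ECs were also high, at 367 and 565 CPM, and Slc6a2+Selp+ ECs were low, at 58.4 and 29.9 CPM. Mgll was detected in 1024 control and 324 Dnmt1iECKO cells of the Ednrb+Car4+ class. In the thinned cells, 61.2% and 62.8% of this class held a Mgll UMI, against 14.1% and 16.2% of Kit+Bmp6+ ECs and 0.61% and 0.59% of T cells.

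The fatty acid binding proteins Fabp4 and Fabp5 behaved differently from each other. Fabp4 was at 323 CPM in control and 47.7 CPM in Dnmt1iECKO Ednrb+Car4+ ECs, and at 10.9 and 2.09 CPM in Kit+Bmp6+ ECs. Slc6a2+Selp+ ECs held similar levels in the 2 libraries, 212 CPM (183 to 243) and 191 CPM (167 to 217). Outside ECs, Fabp4 was high in alveolar macrophages (250 and 349 CPM) and, in the control library, in mural cells (464 CPM, against 24.2 CPM in the Dnmt1iECKO library), where 1 control cell held 52.1% of the 311 UMIs. Fabp5 was an EC gene to a small extent only. Macrophages (1686 and 1612 CPM), type 2 epithelium (911 and 982 CPM) and alveolar macrophages (721 and 616 CPM) were far above any EC class, of which Slc6a2+Selp+ ECs were at 82.4 and 55.8 CPM, Kit+Bmp6+ ECs at 27.4 and 35.6 CPM and Ednrb+Car4+ ECs at 17.2 and 6.19 CPM. T cells, which are known to express Fabp5, were at 41.9 and 71.9 CPM.

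The 3 transcription factors were sparse in ECs. Pparg, a nuclear receptor that fatty acids bind and that has Cd36, Fabp4 and Lpl among its known targets, was at 8.15 and 2.84 CPM in Ednrb+Car4+ ECs and at 1.02 and 0.36 CPM in Kit+Bmp6+ ECs, against 373 and 476 CPM in alveolar macrophages. A Pparg UMI was found in 97 control and 47 Dnmt1iECKO ECs, and in the thinned cells in 0.52% and 0.45% of ECs, below the 1.82% and 0.66% of T cells. T cells, at 10.9 and 5.56 CPM, held more Pparg than either capillary class, so they give no background level for it. Meox2 and Tcf15 are known to act as a pair that raises Cd36 and Lpl in the microvessels of heart and muscle. Meox2 was at 6.66 and 4.38 CPM in Ednrb+Car4+ ECs and at 3.498 and 2.28 CPM in Kit+Bmp6+ ECs, and was highest in alveolar fibroblasts, at 117 CPM (107 to 129) and 109 CPM (99.0 to 119). Tcf15 was at 7.28 and 1.29 CPM in Ednrb+Car4+ ECs and at 4.10 and 3.46 CPM in Kit+Bmp6+ ECs. It was highest in Gja5+Bmx+ ECs, at 39.4 CPM (18 UMIs) and 12.2 CPM (5 UMIs), but 1 control cell held 14 of the 18 UMIs. T cells had neither gene in the control library and no more than 0.12 CPM in the Dnmt1iECKO library.

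**Figure D1:**
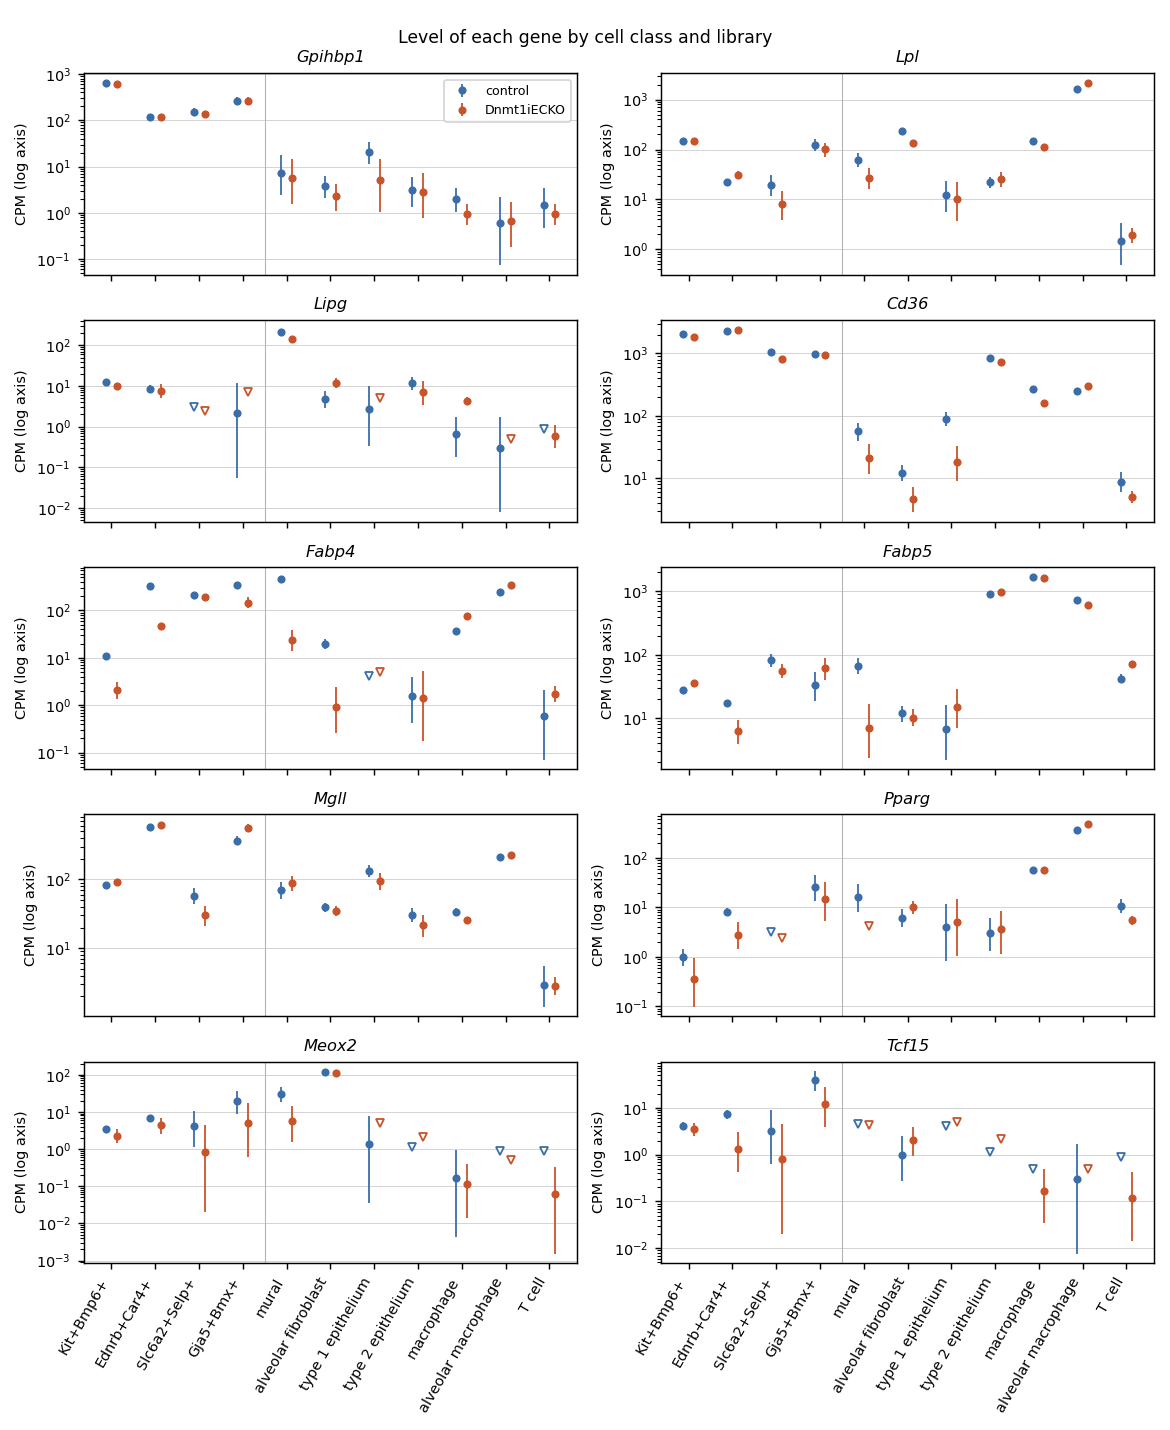
CPM (log axis) of each gene in 11 cell classes of the control library (blue) and the Dnmt1iECKO library (orange), with exact 95% Poisson intervals as bars and the level of 3 UMIs as an open triangle where no UMI was found. The vertical line separates EC classes from other cells. Gpihbp1 falls from 116 CPM or more in every EC class to 20.5 CPM or less elsewhere, whereas Lpl, Fabp5 and Pparg are highest in macrophage classes, Lipg in mural cells and Meox2 in alveolar fibroblasts.

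The second question was which members differ between the Dnmt1iECKO and the control ECs. A difference of 1.5-fold or more was called, with no test, where the libraries together gave 20 UMIs or more of a gene, which all 10 members had over all ECs, in Ednrb+Car4+ ECs and in Kit+Bmp6+ ECs. Over all ECs, Fabp4, Pparg and Tcf15 were lower in the Dnmt1iECKO library, 3 of 10 members beside 4.42% of 17229 genes, and no member was higher, beside 13.2%. The median log2 ratio of the members was -0.29, against 0.02 over all genes tested. In Ednrb+Car4+ ECs 5 of 10 members were lower, beside 10.0% of 12730 genes, and none was higher, beside 5.48%. In Kit+Bmp6+ ECs 3 of 10 were lower, beside 6.17% of 14319 genes, and none was higher, beside 6.58%. These counts depended on how the classes were made. With classes by 3 markers after thinning, 2 members were lower in Ednrb+Car4+ ECs and 1 was higher in Kit+Bmp6+ ECs. With classes by clusters, 0 were lower and 1 was higher in Ednrb+Car4+ ECs, and 1 was lower in Kit+Bmp6+ ECs. The share over all genes was not taken under either definition, so these counts have no general rate beside them.

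Gpihbp1, Cd36, Lpl, Lipg and Mgll stayed within 1.5-fold over all ECs and in both capillary classes. Gpihbp1 gave log2 ratios of -0.27 (-0.30 to -0.24) over all ECs, -0.05 (-0.21 to 0.10) in Ednrb+Car4+ ECs and -0.07 (-0.11 to -0.03) in Kit+Bmp6+ ECs. Cd36 gave -0.41 (-0.43 to -0.40) over all ECs, but 0.07 (0.04 to 0.11) in Ednrb+Car4+ ECs and -0.14 (-0.16 to -0.12) in Kit+Bmp6+ ECs, so that its lower level over all ECs was not found to that extent within the capillary classes. Lpl stayed within 1.5-fold in both capillary classes, at 0.44 (0.12 to 0.75) in Ednrb+Car4+ ECs and 0.02 (-0.07 to 0.10) in Kit+Bmp6+ ECs. Lipg (-0.16 and -0.37) and Mgll (0.10 and 0.16) were also within it.

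The members called over all ECs or in a capillary class were the binding proteins and the transcription factors. Fabp4 had 8405 UMIs in control ECs and 2150 in Dnmt1iECKO ECs, 114 CPM and 55.2 CPM, a log2 ratio of -1.05 (-1.12 to -0.98). Its ratio was -2.76 (-2.98 to -2.55) in Ednrb+Car4+ ECs and -2.39 (-3.07 to -1.77) in Kit+Bmp6+ ECs. Both values rest on few cells, described further on. In Ednrb+Car4+ ECs all but 6 control and 2 Dnmt1iECKO UMIs lay in 26 and 3 cells. In Kit+Bmp6+ ECs 1 control cell held 270 of the 291 control UMIs. Fabp5 was lower in Ednrb+Car4+ ECs, with 220 and 24 UMIs and a log2 ratio of -1.48 (-2.15 to -0.87), whereas it was 0.38 (0.20 to 0.56) in Kit+Bmp6+ ECs. In the same Ednrb+Car4+ ECs the 12 markers of type 2 epithelium, a cell type high in Fabp5, were all detected in each library. They summed to 638 CPM in the control and to 103 CPM in the Dnmt1iECKO library. Without the ECs rich in Fabp4, described further on, they summed to 649 and 102 CPM. Fabp5 was then left with 72 and 21 UMIs, at a log2 ratio of -0.08 (-0.86 to 0.64). The part of type 2 epithelial RNA in the Fabp5 difference was not tested.

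Pparg was lower in Ednrb+Car4+ ECs, at a log2 ratio of -1.52 (-2.57 to -0.62), on 104 and 11 UMIs, and in Kit+Bmp6+ ECs, at -1.48 (-3.46 to 0.04), on 27 and 4 UMIs. Tcf15 was lower in Ednrb+Car4+ ECs, at -2.50 (-4.15 to -1.22), on 93 and 5 UMIs, while in Kit+Bmp6+ ECs it was -0.25 (-0.82 to 0.30). Meox2 just passed the fold in both classes, at -0.60 (-1.45 to 0.16) and -0.62 (-1.32 to 0.03), with intervals that include no difference. The counts of the transcription factors were few in the Dnmt1iECKO library, between 4 and 38 UMIs per capillary class.

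In the 2 small classes fewer members could be compared. In Slc6a2+Selp+ ECs 6 members had enough UMIs, and Lpl (19 and 10 UMIs, -1.29, -2.56 to -0.12) and Mgll (56 and 37 UMIs, -0.97, -1.61 to -0.34) were lower, beside 10.9% of 8764 genes, and none was higher, beside 9.35%. Fabp4 was not called there, at -0.15 (-0.43 to 0.13). In Gja5+Bmx+ ECs 7 members were compared, of which Fabp4 (-1.23, -1.68 to -0.79) and Tcf15 (-1.69, -3.47 to -0.20) were lower, beside 15.3% of 6127 genes, and Fabp5 (0.90, -0.08 to 1.93) and Mgll (0.62, 0.33 to 0.92) were higher, beside 10.3%. All Fabp4 UMIs of the Gja5+Bmx+ class lay in 2 control cells and 1 Dnmt1iECKO cell.

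Fabp4 was held by very few ECs. In the control library 153 of 5529 ECs had any Fabp4 UMI, and the 56 with most, 1% of ECs, held 92.98% of its UMIs, while in the Dnmt1iECKO library 90 of 2410 had any and the top 25 held 86.1%. Pparg (83.8% and 72.2%), Lipg (64.3% and 61.7%), Fabp5 (61.8% and 60.4%), Meox2 (61.8% and 47.9%) and Tcf15 (57.6% and 52.1%) were also concentrated, each gene ranked on its own UMIs. Cd36 (5.54% and 6.15%), Gpihbp1 (6.94% and 7.82%), Mgll (10.1% and 10.5%) and Lpl (15.7% and 18.1%) were spread over many more ECs. A gene found in few cells has a high share by construction, as for Pparg, found in 97 of 5529 control ECs, so the shares follow in part how many cells held the gene.

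**Figure D2:**
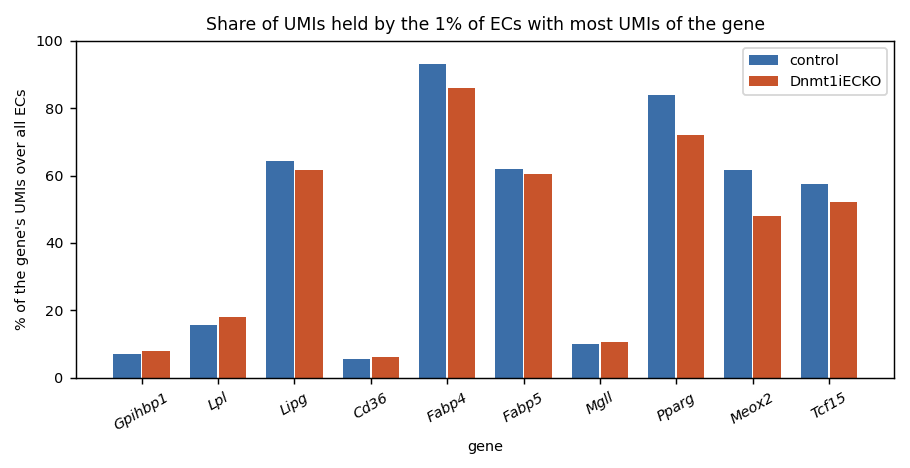
Share of each gene's UMIs over all ECs, in percent, that lay in the 1% of ECs with most UMIs of that gene, for the control library (56 of 5529 ECs, blue) and the Dnmt1iECKO library (25 of 2410 ECs, orange). Bars reach 92.98% for Fabp4 in the control library and stay at 18.1% or less for Gpihbp1, Lpl, Cd36 and Mgll.

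ECs with at least 20 Fabp4 UMIs were therefore described on their own. This limit was chosen after the values had been seen, and these cells were chosen on a readout, so their Fabp4 level is a description. The control library held 65 such ECs, 1.18% (0.91 to 1.496) of ECs, with 23, 85 and 417 Fabp4 UMIs in the lowest, the median and the highest cell. The Dnmt1iECKO library held 28, 1.16% (0.77 to 1.68) of ECs, with 21, 51.5 and 332. Near the limit, 12 control and 7 Dnmt1iECKO ECs lay at 10 to 19 UMIs and 5 in each library at 20 to 29, a larger part of the smaller Dnmt1iECKO group, and no other limit was run. These ECs held 96.2% of the Fabp4 UMIs of control ECs and 89.2% of those of Dnmt1iECKO ECs. Cdh5 (1027 and 794 CPM) and Pecam1 (1227 and 1139 CPM), the genes of the EC gate, were near their levels in the other ECs (1189 and 997 CPM, and 1173 and 956 CPM).

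The same cells carried much of the signal of the sparse members. Pparg was at 189 CPM (162 to 219) in the 65 control cells and at 1.14 CPM in the other control ECs, and 67.2% of the control EC UMIs of Pparg lay in these cells. Tcf15 was at 207 CPM (178 to 239) against 2.57 CPM, with 49.9% of its UMIs there, and Meox2 at 151 CPM (127 to 179) against 5.43 CPM, with 25.6%. At least 2 of these 3 genes were detected in 43 of the 65 cells and in 21 of the other 5464 control ECs. In the Dnmt1iECKO library the 28 cells had lower levels, with Pparg at 25.4 CPM (14.2 to 41.9), Tcf15 at 47.4 CPM (31.5 to 68.5) and Meox2 at 55.8 CPM (38.4 to 78.4), still above the 1.67, 1.72 and 5.40 CPM of the other Dnmt1iECKO ECs. There 9 of the 28 cells had at least 2 of the 3 genes, against 14 of the other 2382 ECs.

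Of the less concentrated genes, Gpihbp1, Cd36 and Mgll were higher in the 65 control cells, with Gpihbp1 at 855 CPM against 398 CPM in the other ECs, Cd36 at 2327 against 1745 CPM and Mgll at 785 against 207 CPM. In the 28 Dnmt1iECKO cells, Gpihbp1 (278 against 335 CPM) and Cd36 (1036 against 1322 CPM) were below the other ECs, and Mgll (401 against 173 CPM) above. Lpl was at 119 against 98.7 CPM in the control library (ratio 1.20, 0.98 to 1.46) and at 59.2 against 93.6 CPM in the Dnmt1iECKO library (ratio 0.63, 0.44 to 0.88). Fabp5 was raised in both, at 405 against 33.5 CPM in the control library and 256 against 43.7 CPM in the Dnmt1iECKO library. Foxf1, a transcription factor of lung capillaries, was low in these cells of both libraries, at 46.6 against 259 CPM and 82.9 against 192 CPM. Beyond the members, the genes that led these cells in both libraries were Tshz2, Selp, Rflnb, Sorbs2, Rbp7, Csf2rb, Mecom, Gda, Pde2a and Ebf3. Selp encodes the adhesion molecule P-selectin and is of the vein markers, and Mecom is a transcription factor known from arterial ECs. Summed over these cells, all 9 vein markers, gating pair included, were above their level over all ECs in both libraries. Of the 9 artery markers 6 and 5 were, of the 9 general capillary markers 3 and 2, and of the 9 aerocyte markers 0. The group was mixed in its vein markers. In the 26 control cells of the Ednrb+Car4+ class, described further on, only 2 of the 9 were above that level. Slc6a2, Selp and Ackr1 had no UMI in those 26 cells.

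**Figure D3:**
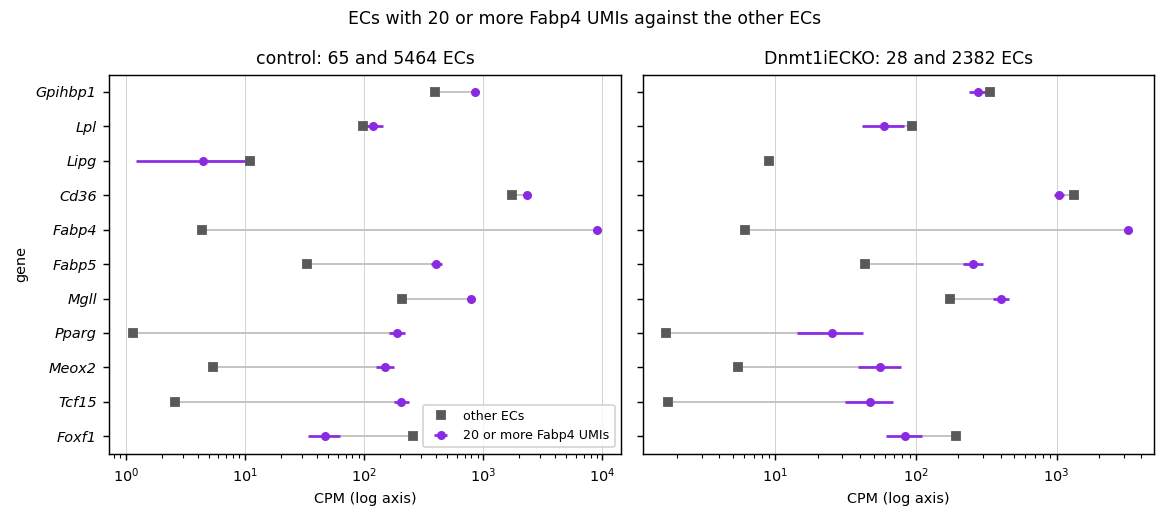
CPM (log axis) of the 10 genes and Foxf1 in ECs with at least 20 Fabp4 UMIs (purple circles, exact 95% Poisson intervals) and in the other ECs (grey squares) of the control library (left, 65 and 5464 cells) and the Dnmt1iECKO library (right, 28 and 2382 cells). The cells were chosen on Fabp4. Pparg, Meox2 and Tcf15 lie far to the right of the other ECs in both panels, by less in the Dnmt1iECKO library, and no Lipg UMI was found in its 28 cells.

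Between the libraries, Lipg had too few UMIs in these cells, and Fabp4 chose them, so that its log2 ratio of -1.47 is a description. The 8 other members were all at least 1.5-fold lower in the 28 Dnmt1iECKO than in the 65 control cells, beside 17.7% of 8061 genes, and none was higher, beside 14.3%. The log2 ratios ran from -0.67 (-0.95 to -0.39) for Fabp5 to -2.90 (-3.76 to -2.13) for Pparg, with a median of -1.44, Fabp4 included, against -0.07 over all genes tested. Gpihbp1 was at -1.62 (-1.88 to -1.38), Cd36 at -1.17 (-1.30 to -1.04) and Tcf15 at -2.12 (-2.75 to -1.55). The cells of the 2 libraries also differed in other genes: Selp was higher in the Dnmt1iECKO cells by 0.77 (0.65 to 0.89), the 7 vein markers without the gating pair summed to 1387 and 3237 CPM in control and Dnmt1iECKO cells, and the 7 aerocyte markers to 329 and 154 CPM, with Fibin and Rgs6 at 0 in the latter. The 10 mural markers, all detected in the control cells, summed to 1260 CPM there and to 161 CPM in the Dnmt1iECKO cells, where Notch3, Myh11, Cox4i2, Higd1b and Postn had no UMI. Over all ECs the mural list summed to 284 and 395 CPM. The part of mural, vein and aerocyte RNA in the differences between the 65 and the 28 cells was not tested.

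The Ednrb+Car4+ class held 26 of the 65 control cells, 2.20% of the class (1.44 to 3.20), and 3 of the 28 Dnmt1iECKO cells, 0.82% of the class (0.17 to 2.38). They entered it on few UMIs, with medians of 2 and 1 Ednrb UMIs against 16 and 13 in the other cells of the class, and of 4 and 5 Car4 UMIs against 26 and 25. The 7 aerocyte markers that did not gate the class summed to 206 CPM in the 26 control cells, with none of them above its level over all ECs, and to 8552 CPM in the rest of the control class. These 26 cells thus went against the aerocyte markers of their class, whereas the 10 mural markers summed to 2159 CPM in the 26 and 229 CPM in the rest. In the 3 Dnmt1iECKO cells the mural list summed to 2899 CPM, with 1 of the 10 markers detected, and to 124 CPM in the rest of that class. Kit+Bmp6+ ECs held 1 such cell in the control library, with 270 of the 291 Fabp4 UMIs of that class, and none in the Dnmt1iECKO library, 0 of 881 cells, which allows a share of up to 0.42%.

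Calls between the libraries were fewer without these cells. Leaving them out fixes what is left of Fabp4, on which they were chosen, and its 4.34 and 6.08 CPM in the other control and Dnmt1iECKO ECs are a description. Pparg was at 1.14 and 1.67 CPM without them, a log2 ratio of 0.55 (0.06 to 1.04) in place of -0.76. It did not choose the cells, but 67.2% of its control and 19.0% of its Dnmt1iECKO EC UMIs lay in them. Its change is thus a description too. Over all ECs no member was then called, lower or higher, beside 4.34% and 13.2% of 17186 genes, with Tcf15 just inside the fold at -0.58 (-1.01 to -0.17) and Meox2 at -0.01 (-0.26 to 0.24). In Ednrb+Car4+ ECs none of the 7 members that still had 20 UMIs was called, beside 9.29% lower and 5.75% higher of 12643 genes. Fabp4 was left with 6 and 2 UMIs there, Pparg with 5 and 7, and Tcf15 with 9 and 1, and Fabp5 was at -0.08 (-0.86 to 0.64). Gpihbp1 stood at 90.6 and 111 CPM in this class without them, 0.29 (0.13 to 0.46), and Lpl at 18.1 and 27.2 CPM lay just inside the fold, at 0.58 (0.24 to 0.92). In Kit+Bmp6+ ECs, without the single control cell, Fabp4 was left with 21 and 23 UMIs, at 1.41 (0.49 to 2.33), which again follows from the choice of the cells, Pparg was lower, at -1.37 (-3.35 to 0.16) on 25 and 4 UMIs, and Meox2 was at -0.54 (-1.25 to 0.11). That is 1 member lower and 1 higher, Fabp4, of 10, beside 6.13% and 6.63% of 14317 genes.

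**Figure D4:**
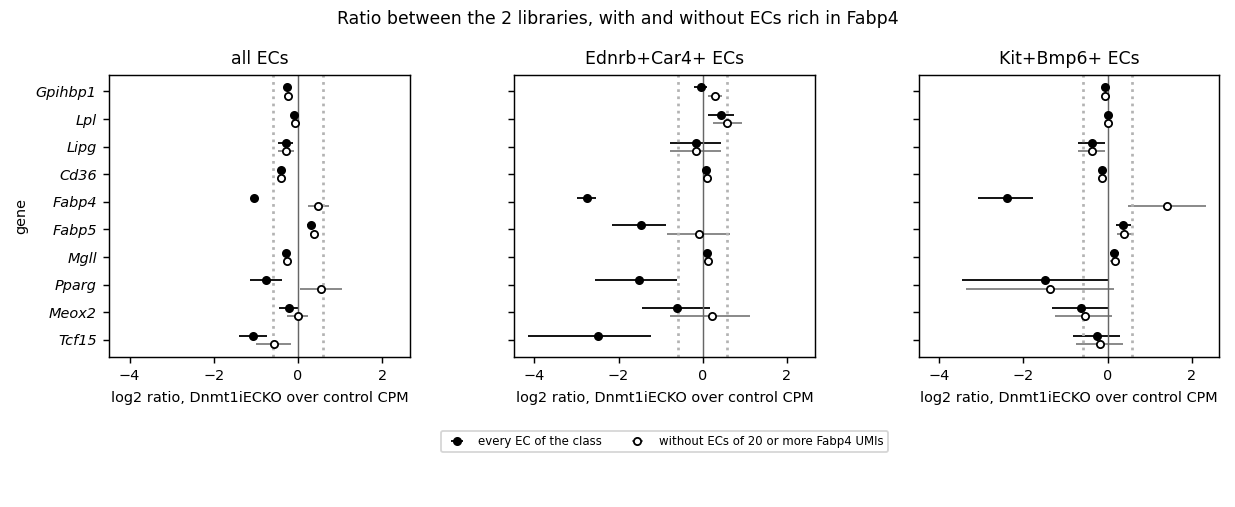
Log2 ratio of Dnmt1iECKO over control CPM, with exact 95% intervals, in all ECs and in the 2 capillary classes, for every EC (filled) and without the ECs of 20 or more Fabp4 UMIs (open, shown where 20 UMIs remain). Dotted lines mark 1.5-fold. Pparg moves from -0.76 to 0.55 over all ECs and Fabp5 from -1.48 to -0.08 in Ednrb+Car4+ ECs, whereas Cd36 and Mgll hardly move. The move of Fabp4 follows from the choice of the cells.

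Whether the members rise with Meox2 and Tcf15 was looked at cell by cell in the thinned cells, as a description. Among Ednrb+Car4+ ECs of the control library 12 of 1130 cells had a Meox2 UMI and 14 had a Tcf15 UMI, and 10 and 14 of them were among the ECs with at least 20 Fabp4 UMIs. Cells with a Tcf15 UMI had 2536 CPM of Gpihbp1 against 102 CPM without, and 5179 CPM of Cd36 against 2322 CPM. In Kit+Bmp6+ ECs of the control library, where only 1 of the 12 Meox2 cells and none of the 19 Tcf15 cells was of that kind, Cd36 was at 1917 CPM with and 2229 CPM without Meox2 (ratio 0.86, 0.63 to 1.15) and at 2368 and 2226 CPM with and without Tcf15 (ratio 1.06, 0.85 to 1.31). Lpl there was at 125 against 150 CPM for Meox2, on 3 UMIs, and at 158 against 150 CPM for Tcf15, on 6 UMIs. For Cd36 and Lpl in Kit+Bmp6+ ECs no difference was detectable at this depth. Of the 36 Fabp4 UMIs of the thinned class 35 lay in the 12 Meox2 cells. However, 1 of these was the single cell rich in Fabp4, which held 270 of the 291 Fabp4 UMIs of the class before thinning. The 35 UMIs are therefore not read as a rise of Fabp4 over the 12 cells. The Dnmt1iECKO library had only 3 and 1 such Ednrb+Car4+ cells and 3 and 5 such Kit+Bmp6+ cells.

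Beyond the members, 41 other genes of fatty acid handling were counted. Over all ECs 7 of the 41 were at least 1.5-fold higher in the Dnmt1iECKO library (13.2% of all genes were), led by Angptl4, an inhibitor of Lpl (3.28 and 7.86 CPM, log2 ratio 1.26, 1.01 to 1.51), the lipoprotein receptor Vldlr (0.89, 0.74 to 1.03) and G0s2, an inhibitor of triglyceride lipolysis (0.79, 0.66 to 0.93). Hilpda, of lipid droplets, was the 1 that was lower (-0.59, -0.64 to -0.53). It just passed the fold, and was within it in Ednrb+Car4+ (0.02) and Kit+Bmp6+ ECs (-0.36). Without the ECs of 20 or more Fabp4 UMIs, 0 of the 41 were lower over all ECs and 6 were higher. In Ednrb+Car4+ ECs 4 of 37 were lower and 2 higher, beside 10.0% and 5.48% of all genes, and in Kit+Bmp6+ ECs 2 of 41 were lower and 3 higher, beside 6.17% and 6.58%. These shares are near those of all genes. Without the ECs of 20 or more Fabp4 UMIs, 3 of 36 were lower and 4 higher in Ednrb+Car4+ ECs, beside 9.29% and 5.75%. G0s2 was higher in both capillary classes (0.80, 0.26 to 1.32 and 1.09, 0.82 to 1.36), while Angptl4 was lower in Ednrb+Car4+ ECs (71 and 11 UMIs, -0.97, -2.04 to -0.05) and higher in Kit+Bmp6+ ECs (28 and 43 UMIs, 1.89, 1.17 to 2.64). The 8 genes of fatty acid oxidation were within 1.5-fold over all ECs and in Kit+Bmp6+ ECs, with Cpt1a, which brings fatty acids into mitochondria, at -0.06 (-0.14 to 0.02) over all ECs. In Ednrb+Car4+ ECs 1 of the 8 was lower, Cpt2, which acts with Cpt1a (82 and 14 UMIs, -0.83, -1.76 to -0.003). The median log2 ratio of the list was -0.03 over all ECs.

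The capillary classes were compared over the same list. Of 38 genes with enough UMIs, 6 were at least 2-fold higher in Kit+Bmp6+ than in Ednrb+Car4+ ECs in both libraries, beside 8.69% of all genes, and 2 were lower, beside 4.46%. Among the higher ones were hormone-sensitive lipase, Lipe (2.40-fold in the control and 2.69-fold in the Dnmt1iECKO library), and the fatty acid receptor Ppara (2.44-fold and 3.18-fold, on 13 and 3 UMIs in Ednrb+Car4+ ECs) and its coactivator Ppargc1a (2.72-fold and 18.4-fold, the latter on 1 UMI in Ednrb+Car4+ ECs). The 2 lower ones were Acsl1, which activates fatty acids by joining them to coenzyme A (3.98-fold in both libraries), and Meox1, the nearest relative of Meox2 (8.78-fold and 7.68-fold). Meox1 stood at 153 and 156 CPM in Ednrb+Car4+ ECs, and at 17.4 and 20.3 CPM in Kit+Bmp6+ ECs.

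The genes whose levels were most like those of a member were sought over the 18 class and library points with at least 50 cells, which share 2 libraries, as Pearson correlations of log2 (CPM + 10). Gpihbp1 was most like Sox17 (r = 0.99), Rasgrp3 (0.99) and Kif26a (0.98), and Cd36 like Dram2 (0.96), Cracr2b (0.94) and Scarb1 (0.93). Meox2 was most like Rbm46 (0.99), Prkg2 (0.98) and Svep1 (0.98), and Lpl like Tesmin, Idh1 and Ctsk (0.89, 0.89 and 0.88). Tcf15 had no close match, the highest being Gm9917, Majin and Ccdc63 (0.86, 0.85 and 0.85). In the EC classes among these points Tcf15 was at 7.28 CPM or less, below the 10 CPM added, so its correlations rest on low levels. The Gja5+Bmx+ class, where Tcf15 was highest, had under 50 cells in each library and was not among the points. Among the members themselves, Lpl and Pparg (0.78), Gpihbp1 and Cd36 (0.74) and Gpihbp1 and Tcf15 (0.74) were the most alike, and Meox2 and Tcf15 were at 0.15.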

How the data were processed

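The authors deposited UMI counts per gene and cell after cell calling, not normalized, and the submitters' processing notes name Cell Ranger 9.0.1 and the mm10 genome. Cells with under 500 detected genes or over 10% mitochondrial UMIs were removed. Of each library, the share of cells taken out as doublets by Scrublet score was 0.4% for every 1000 cells. Other cell types needed at least 3 markers after thinning to 2000 UMIs per cell and no Cdh5 UMI. UMIs were summed per class and library and scaled to all UMIs of the class (CPM). Levels have exact Poisson, ratios exact conditional and shares Clopper-Pearson 95% intervals, which cover counting error only. A UMI is counted once per molecule, and the depth of each class is given with the level of 3 UMIs where a gene was not found. With 1 library per condition there is no test. Calls needed 20 UMIs and 1.5-fold between libraries, or 2-fold between classes.

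The named genes are the 10 members, up to 3 genes with the largest fold each way of a list of 41 fatty acid genes, and the 3 genes most like Gpihbp1, Cd36, Lpl, Meox2 and Tcf15. Members and lists were chosen with earlier results of these data known. Foxf1, Selp, the genes leading the Fabp4-rich ECs and Meox1 were named after their values were seen, the last as a gene of the list. The calculation was tested on simulated counts. Python 3.11.15 with numpy 2.4.6, scipy 1.17.1, pandas 2.3.3, scanpy 1.11.5 and matplotlib 3.10.9 was used. Gene positions are from GENCODE and promoters from RefSeq, both on GRCm38. The alternatives were other cell filters, gates, scalings, UMI minima, class definitions and class composition.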

Additional observations from a re-analysis of the deposited data

Results flagged for a closer look

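Cd36 and Fabp5 differed between the libraries in opposite directions in the 2 capillary classes, with intervals that did not include 0 in either class. The Cd36 log2 ratio of Dnmt1iECKO over control was 0.074 (0.040 to 0.108) in Ednrb+Car4+ ECs and -0.141 (-0.164 to -0.117) in Kit+Bmp6+ ECs. That of Fabp5 was -1.477 (-2.15 to -0.87) in Ednrb+Car4+ ECs and 0.378 (0.197 to 0.557) in Kit+Bmp6+ ECs. With 1 library per condition the difference between the classes was not tested for either gene. Both ratios of Cd36 were small, and neither reached 1.5-fold. Without the ECs of at least 20 Fabp4 UMIs, Fabp5 was at -0.08 (-0.86 to 0.64) in Ednrb+Car4+ ECs and at 0.40 (0.22 to 0.58) in Kit+Bmp6+ ECs.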

How the results depend on the processing

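No paired analysis was possible because each condition has 1 library and the labels carry no replicate numbers. Under 15 alternatives, 92 counts of called members were within 1.5 times the count first given and 18 were not. Shares over all genes were taken only for the alternative without the ECs of at least 20 Fabp4 UMIs, and there not between the capillary classes. The other counts have no general rate beside them. Without doublet removal 1 member was lower in Kit+Bmp6+ ECs, in place of 3. Leaving out cells with Epcam, Cspg4 or Myh11, or averaging the CPM of single cells, gave 1 higher member in Ednrb+Car4+ ECs, in place of none. With classes by 3 markers after thinning, 2 members were lower in Ednrb+Car4+ ECs (5 before), 1 was higher in Kit+Bmp6+ ECs (none before), 5 were 2-fold higher and 1 was 2-fold lower in Kit+Bmp6+ than in Ednrb+Car4+ ECs (2 each before), and Meox2 turned to 0.41 in Ednrb+Car4+ and 0.085 in Kit+Bmp6+ ECs. With classes by clusters, 0 members were lower and 1 was higher in Ednrb+Car4+ ECs, 1 was lower in Kit+Bmp6+ ECs, the class counts were 4 and 1, Fabp5 turned to 0.12 in Ednrb+Car4+ ECs and Fabp4 to 0.12 in Kit+Bmp6+ ECs. The cause of these changes was not tested. Without the ECs of at least 20 Fabp4 UMIs, an alternative chosen after seeing the data, the lower counts were 0 over all ECs, 0 in Ednrb+Car4+ ECs and 1 in Kit+Bmp6+ ECs, with 1 higher there, the class counts were 4 and 1, Fabp4 was at 0.49 over all ECs and 1.41 in Kit+Bmp6+ ECs, Pparg at 0.55 over all ECs and Meox2 at 0.22 in Ednrb+Car4+ ECs. Of 397 log2 ratios of single members under the alternatives, 377 kept their sign. Depth limits Pparg, Meox2 and Tcf15, which had between 4 and 38 UMIs in each Dnmt1iECKO capillary class.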
